A study of Mus musculus with 27 samples.

Results

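The genomic loci of Pou5f1 (the gene of Oct4), Sox2, Klf4 and Myc, the genes whose products make up the OSKM reprogramming cocktail, were followed through 19 deposited peak lists of ChIP-seq, the sequencing of DNA pulled down with antibodies against chromatin marks, in mouse fibroblasts and pluripotent cells. Members were all peaks that met a fixed window around each gene by at least 1 bp. The windows, in 1-based mm9 positions, were chromosome 17 from 35638001 to 35653000 for Pou5f1, chromosome 3 from 34544001 to 34556000 for Sox2, chromosome 4 from 55535001 to 55550000 for Klf4 and chromosome 15 from 61812001 to 61827000 for Myc. They held 75 of the 234652 peaks in all lists: 22 at Pou5f1, 25 at Sox2, 13 at Klf4 and 15 at Myc. Of these, 53 were peaks of H3K4me3, 15 of H3K27me3 and 7 of UTX. No mm9 gene model was at hand, so peaks were not placed on exons, introns or start sites, and each locus goes by its window.

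The 7 cell states were aberrant Utx-KO iPS cells in 2 clones (V19-OSKM strain, genotype Utx-/Y, improperly reprogrammed and without doxycycline), Utx-KO embryonic stem cells (ESC; strain V6.5, Utx-/Y), Utx-KO embryonic fibroblasts (MEF; V19-OSKM, Utx-/Y) with doxycycline (dox), wild-type (WT) MEF with dox (V19-OSKM, Utx+/Y), WT ESC (V6.5, Utx+/Y), Utx-KO MEF without dox and WT MEF without dox. All V19-OSKM fibroblasts carry the inducible OSKM factors, in both genotypes, and dox switches them on. ESC were grown in N2B27 with 2i/LIF (kinase inhibitors and the cytokine LIF, which keep ESC undifferentiated), and MEF in 2i/LIF with or without dox. ESC and MEF thus differ in strain as well as cell type, and these cannot be told apart. H3K4me3 and H3K27me3 were mapped in all 7 states and UTX in WT MEF with dox, WT ESC and WT MEF, with 1 library per mark for each state and each iPS clone. The 2 iPS clones are the nearest to replicates, each being 1 clone, so no difference between states was tested and none has a replicate check. The sources used here do not give the dox duration, the promoter that drives the transgenes or the kind of Utx allele. Reads from the OSKM transgenes can fall on exons of all 4 genes in the V19-OSKM cells, and reads of the transgenes and of the endogenous genes cannot be told apart there.

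H3K4me3, trimethylation of lysine 4 of histone H3, marks active and poised promoters, and wide H3K4me3 domains often lie on genes that define a cell type. H3K27me3 is laid down by Polycomb repressive complex 2 over silent developmental genes, and UTX (Kdm6a), encoded on the X chromosome, is a demethylase that removes methyl groups from that lysine. In ESC, Oct4 and Sox2 bind DNA together and maintain the pluripotent state, and both genes are silent in fibroblasts. Klf4, a zinc finger factor, and Myc, a basic helix-loop-helix regulator of growth and proliferation, are also expressed in somatic cells, fibroblasts included.

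The promoter sequences of these genes show a contrast in CpG content, and CpG-rich promoters are known to carry H3K4me3 more often, so they are shown before the peaks. The 250 bases before the annotated start are printed 5′ to 3′ on the gene's strand, with every CpG in capitals; they come from RefSeq on GRCm38.p6, so their positions were not compared with the mm9 peaks. Sox2 and Pou5f1 lie on the plus strand and Klf4 on the minus strand, and 3 of the 4 members had an entry; Myc (gene ID 17869) is named only. 
Sox2: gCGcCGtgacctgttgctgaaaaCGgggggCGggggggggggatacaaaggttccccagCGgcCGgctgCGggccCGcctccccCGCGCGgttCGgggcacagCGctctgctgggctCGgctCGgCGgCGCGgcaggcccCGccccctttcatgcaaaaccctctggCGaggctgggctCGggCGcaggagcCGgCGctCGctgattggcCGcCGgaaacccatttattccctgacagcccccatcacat
Klf4: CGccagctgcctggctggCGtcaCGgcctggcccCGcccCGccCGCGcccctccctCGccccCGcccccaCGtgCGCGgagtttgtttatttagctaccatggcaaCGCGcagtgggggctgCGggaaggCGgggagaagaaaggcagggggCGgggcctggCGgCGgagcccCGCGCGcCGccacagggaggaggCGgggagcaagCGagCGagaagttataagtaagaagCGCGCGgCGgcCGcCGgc
Pou5f1: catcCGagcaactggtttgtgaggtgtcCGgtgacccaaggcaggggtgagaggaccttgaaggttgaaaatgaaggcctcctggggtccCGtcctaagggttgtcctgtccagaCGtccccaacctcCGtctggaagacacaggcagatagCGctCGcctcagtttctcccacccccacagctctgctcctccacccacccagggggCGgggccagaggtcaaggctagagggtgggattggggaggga
The Klf4 promoter (gene ID 16600) held 32 CpG at 74% GC, and 4.58% of the 32851 promoters in the table had as many CpG or more. The Sox2 promoter (gene ID 20674) held 27 CpG at 72% GC, with 8.56% of promoters holding as many. The Pou5f1 promoter (gene ID 18999) held 8 CpG at 62% GC, close to the median of 6 CpG over all promoters, and 43.0% of promoters had as many. A second Pou5f1 entry, from another annotated start, held 6 CpG at 45.6% GC. Of the motifs searched on both strands, the GC box GGGCGG was found 4 times at Klf4, 2 times at Sox2 and 1 time at the first Pou5f1 start, against a share of 32.7% of all promoters with at least 1. The E-box CACGTG, the site class that Myc proteins can bind, was found 1 time at Klf4 and in 6.02% of all promoters, and no base belonged to both motifs. These are matches of letters and not binding sites.

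The lists differed in length and in the width of their peaks, which touches every covered length below. H3K4me3 lists held 16157 to 28232 peaks. Peaks had a median width of 3063 bp in dox-treated Utx-KO MEF and 2379 bp in dox-treated WT MEF, against 832 bp in untreated Utx-KO MEF and 1118 bp in untreated WT MEF. All H3K4me3 peaks together covered 52.8 and 52.0 Mb in Utx-KO and WT MEF with dox, against 22.3 and 23.6 Mb in Utx-KO and WT MEF without it. H3K27me3 lists were more unequal. The iPS clones had 135 and 737 peaks, Utx-KO ESC had 36231 against 5679 in WT ESC, dox-treated Utx-KO MEF had 4335 against 938 in dox-treated WT MEF, and untreated Utx-KO MEF had 5708 against 4760 in untreated WT MEF. A score, the authors' own value per peak, is at least 50 in every list and reaches 3100 in many H3K4me3 peaks, where it no longer ranks them. It reached 100 in 2.35% of the H3K27me3 peaks of WT MEF with dox, against 89.7% in WT MEF. Read totals were not used here and depth is unknown, so the lack of a peak means that none was called.

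**Figure D1:**
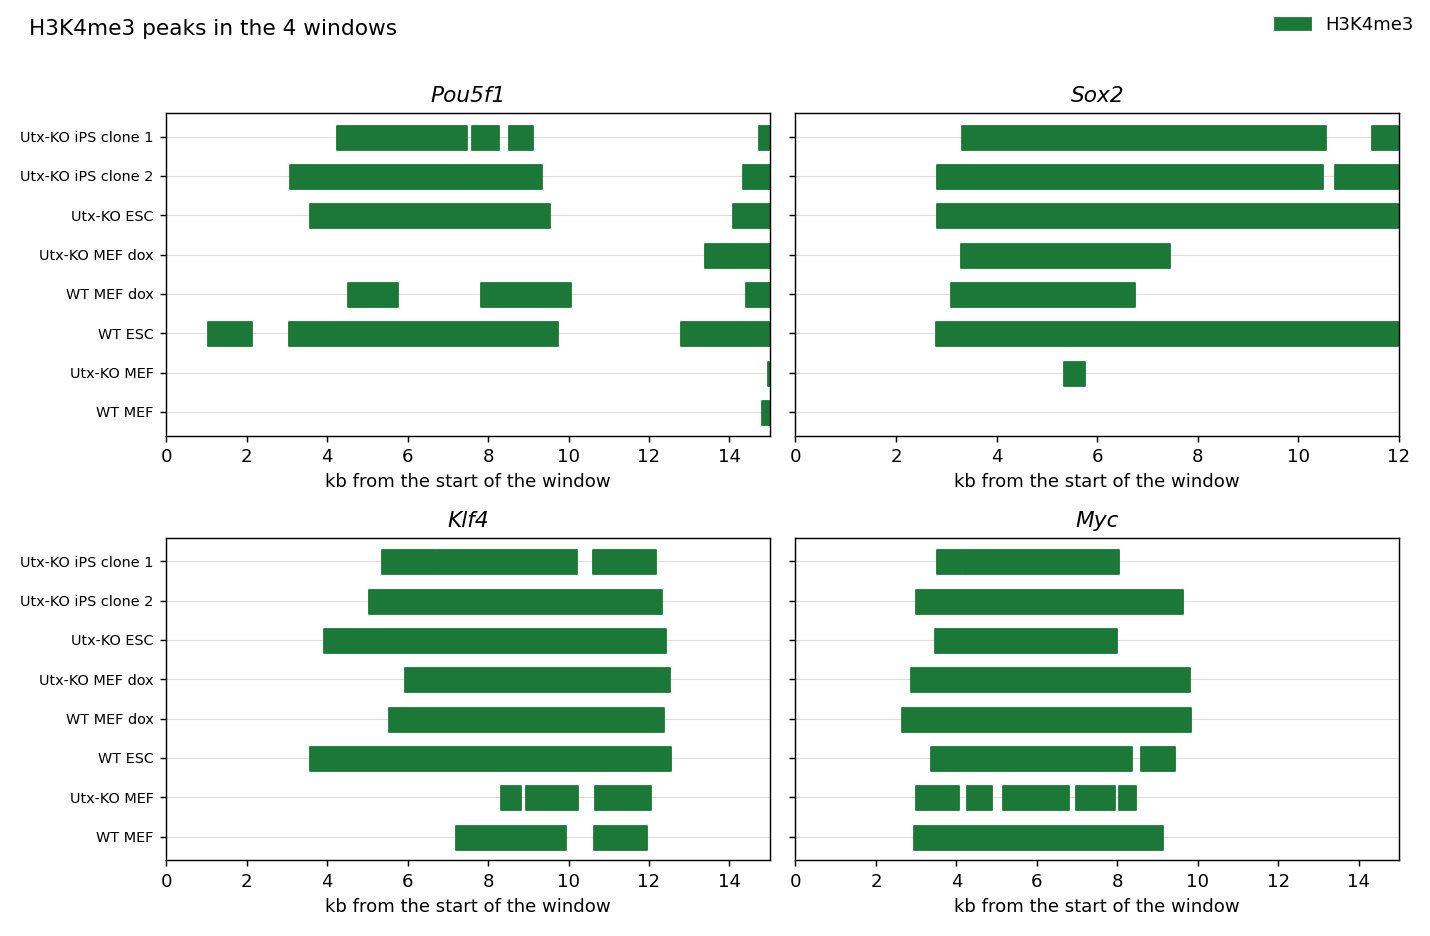
H3K4me3 peaks in the 4 windows. Each panel is 1 locus, the horizontal axis is distance from the window start in kb, each row is 1 library from iPS clone 1 at the top to WT MEF at the bottom, and each bar is 1 peak cut at the window ends. Sox2 carried 1 peak in MEF of each genotype with dox, 1 short peak in Utx-KO MEF and none in WT MEF, and Myc was covered in all 8 rows; gaps of 15 bp (Myc) and 21 bp (Klf4) in iPS clone 1 are too small to see.

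At Sox2, H3K4me3 ran over most of the window in ESC and iPS clones and over little or none of it in untreated fibroblasts. It covered 7.76 kb of its 12 kb window in iPS clone 1, 8.96 kb in iPS clone 2 and 9.18 kb in Utx-KO ESC. Coverage was 4.15 kb in Utx-KO MEF with dox and 3.66 kb in WT MEF with dox. In the remaining states H3K4me3 covered 9.20 kb in WT ESC, 0.418 kb in Utx-KO MEF and 0 kb in WT MEF, whose nearest H3K4me3 peak lay 138 kb away. The ESC and iPS libraries were thus the highest, the dox libraries lay between, and the untreated fibroblasts were the lowest. The share of all windows with this order was not counted, and H3K4me3 peaks of the MEF were wider with dox over the whole lists.

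Sox2 was covered by a single H3K4me3 peak, which runs past the window end, in each ESC library. In Utx-KO ESC it ran from 34546824 to 34557346 and at 10523 bp was the 19th widest of 20133 peaks in that list. In WT ESC it ran from 34546800 to 34557220, was 10421 bp wide and ranked 24 of 19468. The ends of the domain thus nearly coincided between the 2 ESC genotypes. In iPS clone 1 the main Sox2 peak was 7237 bp wide, rank 12 of 23388, and in iPS clone 2 it was 7680 bp wide, rank 119 of 28232. The clones carried a second peak at the right side of the window, behind a gap of 929 bp in clone 1 and 239 bp in clone 2, where the ESC peak was unbroken.

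Sox2 H3K4me3 with dox occupied the left part of the ESC peak in both genotypes. The peak ran from 34547302 to 34551451 in Utx-KO MEF with dox and from 34547093 to 34550755 in WT MEF with dox, and all of both lay inside the WT ESC peak. They shared 3.45 kb. The peak was 4150 bp wide in Utx-KO and 3663 bp wide in WT, while with windows 5000 bp wider all Sox2 coverage differed by -1193 bp, Utx-KO minus WT. Within their own lists 19.6% of peaks were wider than the Utx-KO peak and 16.8% were wider than the WT peak, and by score the Utx-KO peak ranked 11915 of 16157 and the WT peak 6459 of 19689. Utx-KO MEF without dox had a peak of 418 bp with a score of 90.2, from 34549343 to 34549760.

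**Figure D2:**
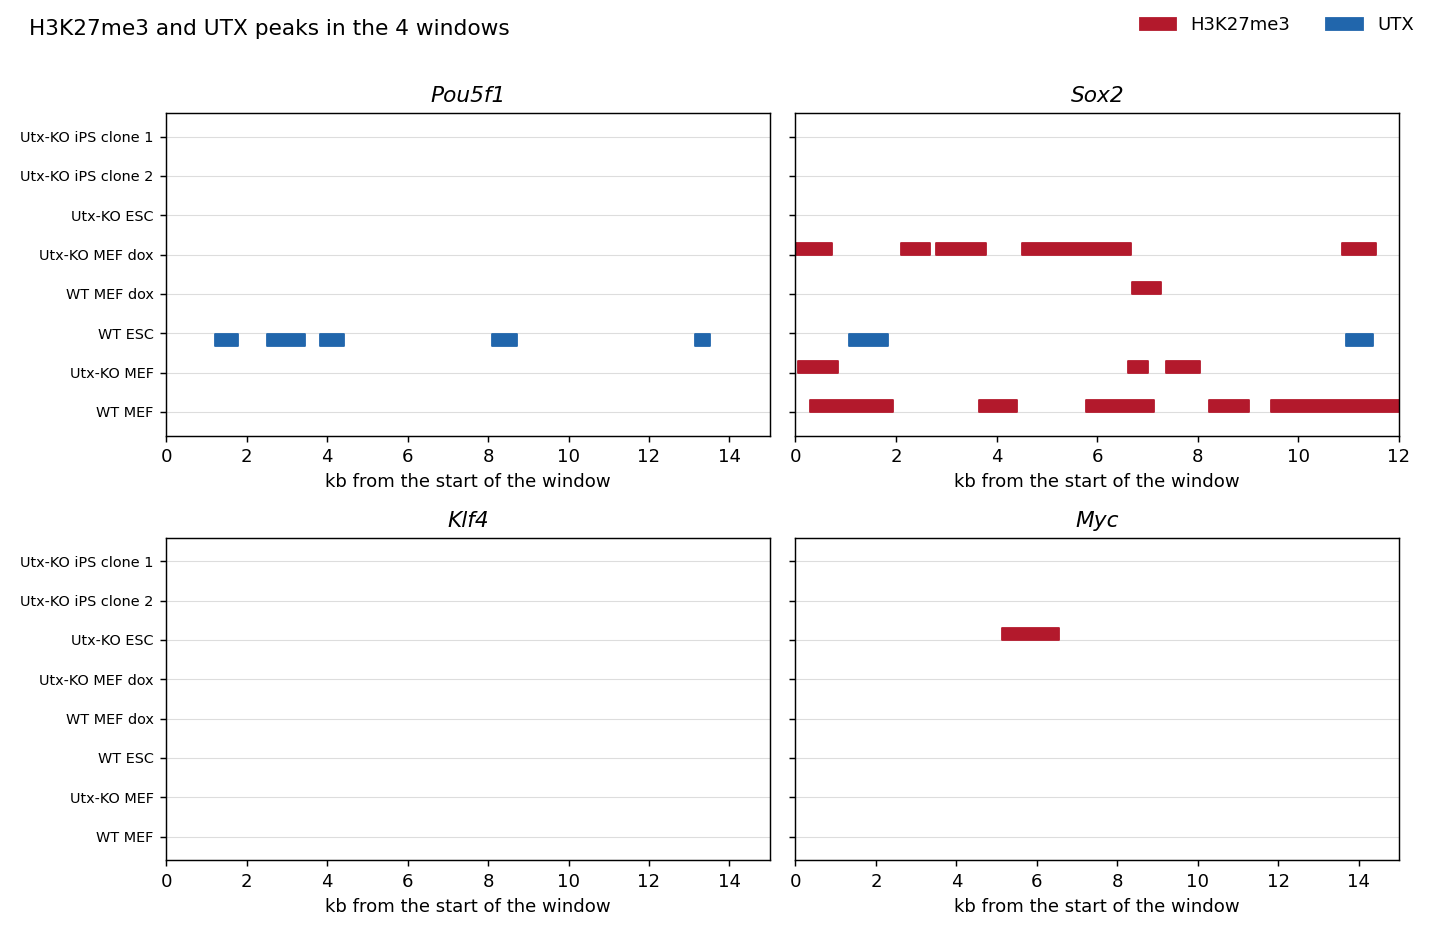
H3K27me3 and UTX peaks in the 4 windows, on the same axes of distance from the window start in kb and with the same rows. Bars are single peaks; UTX was mapped in WT MEF with dox, WT ESC and WT MEF only. H3K27me3 lay at Sox2 in the 4 MEF libraries and at Myc in Utx-KO ESC, and UTX lay at Pou5f1 and Sox2 in WT ESC.

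H3K27me3 lay at Sox2 in all 4 MEF libraries. It formed 5 peaks over 5.14 kb in Utx-KO MEF with dox, against 1 peak over 0.585 kb in WT MEF with dox. Without dox it formed 3 peaks over 1.88 kb in Utx-KO MEF, against 5 peaks over 7.09 kb in WT MEF. By score within its own list, the best of these peaks ranked 585 of 4335 in Utx-KO MEF with dox and 515 of 938 in dox-treated WT MEF. Without dox the best ranked 1264 of 5708 in Utx-KO MEF and 142 of 4760 in WT MEF. No H3K27me3 peak met the Sox2 window in Utx-KO ESC, WT ESC or either iPS clone. The order of the 2 genotypes was thus opposite with and without dox. The same order held in the 50 kb on each side of the window, where H3K27me3 covered 12.4 kb in Utx-KO MEF with dox against 0.799 kb in WT MEF with dox, and 6.48 kb in Utx-KO MEF against 9.97 kb in WT MEF.

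The short and low-scoring H3K27me3 list of WT MEF with dox moves with this contrast at Sox2. With each list reduced to the same number of its highest-scoring peaks, Utx-KO MEF with dox still covered 1597 bp more of Sox2 than WT MEF with dox, where the full lists differed by 4559 bp. WT MEF with dox minus WT MEF was -4344 bp at equal numbers and -6501 bp with the full lists. With peaks of a score of at least 100 only, these 2 differences were 2182 bp and -7086 bp. Between Utx-KO MEF with and without dox, the difference was 3263 bp with the full lists and 301 bp at a score of at least 100.

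Both marks were called over the same bases of Sox2 in the dox libraries. In Utx-KO MEF with dox, 2.66 kb carried both: the highest-scoring H3K27me3 peak, from 34548496 to 34550677, lay wholly inside the H3K4me3 peak, and a smaller one met its left end. In WT MEF with dox the shared stretch was 0.065 kb, at the right edge of the H3K4me3 peak. Without dox no base carried both marks in either genotype: in Utx-KO MEF 0.418 kb of H3K4me3 stood beside 1.88 kb of H3K27me3, and WT MEF had H3K27me3 alone. Called peaks on the same bases do not show that both marks sit on the same nucleosome or in the same cell.

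The H3K27me3 of Sox2 in Utx-KO MEF with dox lay only in part where the fibroblasts had it. It shared 2.13 kb, or 41.4% of its length, with WT MEF and 0.729 kb, or 14.2%, with Utx-KO MEF. It shared no base with the single peak of WT MEF with dox, from 34550691 to 34551275, of which 74.0% lay on H3K27me3 of WT MEF. The highest-scoring H3K27me3 peak of WT MEF, 2572 bp from 34553457 to 34556028, was the 56th widest of 4760 and stood at the right end of the window, where Utx-KO MEF with dox had 1 peak of 682 bp with a score of 73.8. In Utx-KO ESC the nearest H3K27me3 peak ended 2580 bp before the window, with a score of 152, and in WT ESC the nearest lay 531 kb away.

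Pou5f1 showed a difference between the 2 genotypes with dox. H3K4me3 covered 4.81 kb of its 15 kb window in iPS clone 1, 6.92 kb in iPS clone 2 and 6.89 kb in Utx-KO ESC. It covered 1.62 kb in Utx-KO MEF with dox and 4.08 kb in WT MEF with dox. Coverage was 9.97 kb in WT ESC, 0.031 kb in Utx-KO MEF and 0.203 kb in WT MEF. WT ESC stood highest and the untreated fibroblasts lowest.

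Part of that Pou5f1 coverage came from a peak that crosses the right window end in all 8 lists. In the RefSeq gene order of GRCm38 the next coding genes after Pou5f1 are Tcf19 and Cchcr1. Without that peak, Pou5f1 H3K4me3 covered 4.53 kb in iPS clone 1, 6.27 kb in iPS clone 2, 5.97 kb in Utx-KO ESC, 0 kb in Utx-KO MEF with dox, 3.48 kb in WT MEF with dox, 7.77 kb in WT ESC and 0 kb in both untreated MEF. The crossing peak itself was called in Utx-KO MEF with dox with a width of 4767 bp, against 3355 bp in WT MEF with dox. In untreated MEF it was 859 bp wide in Utx-KO and 1065 bp wide in WT. Utx-KO MEF with dox therefore had the wider peak at the window end and no other H3K4me3 peak in the window.

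WT MEF with dox carried 2 H3K4me3 peaks inside the Pou5f1 window. The first ran from 35642526 to 35643768, with a width of 1243 bp and a score of 171. The second ran from 35645830 to 35648065, with a width of 2236 bp and a score of 283. A gap of 2061 bp lay between them. Reads of the transgenes and of the endogenous gene cannot be told apart in these peaks. In WT ESC 1 peak of 6688 bp, from 35641044 to 35647731, covered all of the first and most of the second, with a score of 3100 and width rank 235 of 19468. Of all Pou5f1 coverage in WT MEF with dox, 0.334 kb lay outside WT ESC coverage. In their own list, 89.2% of peaks were wider than the first and 55.1% were wider than the second. By score the first ranked 15124 and the second 13591 of 19689.

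The main Pou5f1 peak of each Utx-KO ESC or iPS library was narrower than that of WT ESC. Peaks of these lists were narrower as a whole. Their median width was 1897 bp in Utx-KO ESC, 1304 bp in iPS clone 1 and 1686.5 bp in iPS clone 2, against 2099 bp in WT ESC. The Utx-KO ESC peak ran from 35641584 to 35647551, at 5968 bp, and the iPS clone 2 peak from 35641080 to 35647348, at 6269 bp. iPS clone 1 had 3 peaks in its place, 3232, 691 and 611 bp wide, of which only the first had a score of 3100. Within their own lists, 1.42% of peaks were wider than the main peak in Utx-KO ESC and 1.20% in WT ESC. The share was 1.03% in iPS clone 2 and 3.80% in iPS clone 1. All Pou5f1 coverage of both clones and of Utx-KO ESC lay within WT ESC coverage. WT ESC had a further H3K4me3 peak from 35639044 to 35640123, with a score of 67.4, that no other list had. No H3K27me3 peak met the Pou5f1 window in any list, and the nearest lay 29847 bp before it in Utx-KO ESC and 29850 bp before it in Utx-KO MEF with dox.

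**Figure D3:**
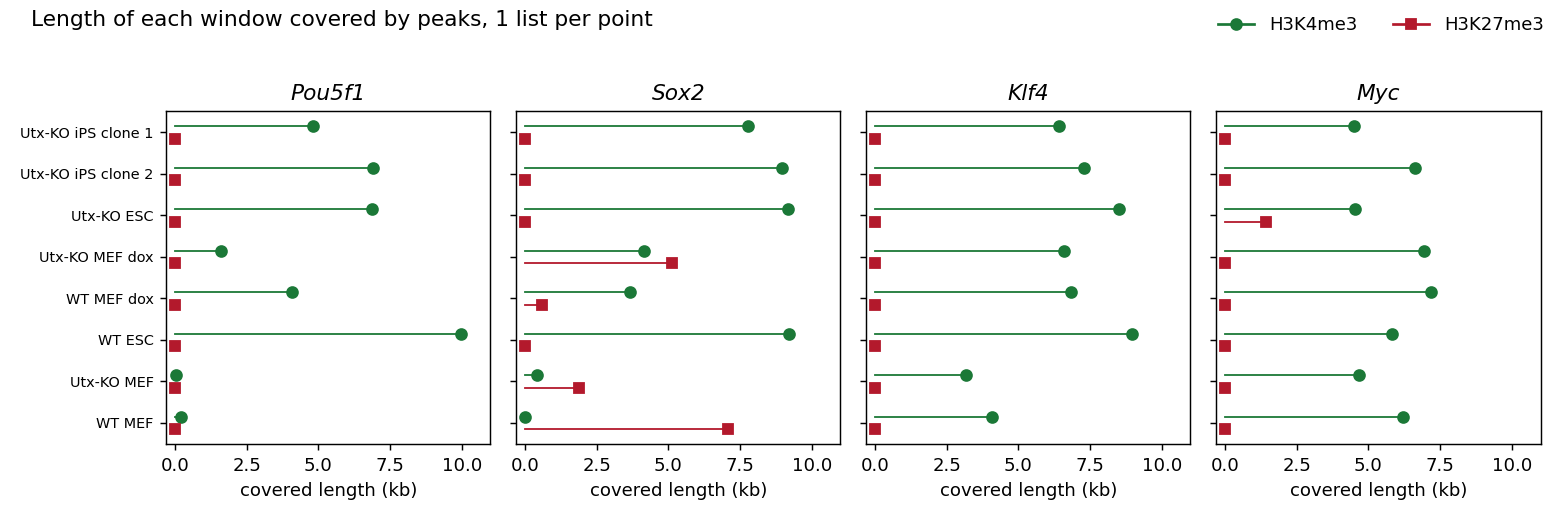
Length covered by H3K4me3 and H3K27me3 peaks in each window, in kb, for each library from iPS clone 1 to WT MEF. Each point stands for 1 mark in 1 library, with no error bar. H3K4me3 at Sox2 reached 9.20 kb in WT ESC and 0 kb in WT MEF, while at Myc the 8 libraries lay between 4.51 and 7.18 kb.

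Klf4 carried H3K4me3 in every library, over longer stretches with dox than without. It covered 6.41 kb of the 15 kb window in iPS clone 1, 7.29 kb in iPS clone 2 and 8.52 kb in Utx-KO ESC. Coverage was 6.59 kb in Utx-KO MEF with dox and 6.83 kb in WT MEF with dox. It was 8.96 kb in WT ESC, 3.18 kb in Utx-KO MEF and 4.07 kb in WT MEF. The untreated fibroblasts were the lowest, and the dox libraries lay among the iPS clones.

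Klf4 had a single H3K4me3 peak in each dox library, 6592 bp wide in Utx-KO and 6831 bp wide in WT, both with a score of 3100 and both wholly inside the WT ESC peak. In untreated fibroblasts the coverage was broken into several peaks. Utx-KO MEF had 3, of 514, 1286 and 1375 bp, and WT MEF had 2, of 2746 and 1321 bp. The ESC peak was 8516 bp wide in Utx-KO ESC, where it ranked 51 of 20133 by width, and 8963 bp wide in WT ESC, from 55538578 to 55547540, where it ranked 63 of 19468. A stretch of 388 bp, from 55545225 to 55545612, was left uncovered in iPS clone 1, Utx-KO MEF and WT MEF and covered in the other lists. Klf4 H3K4me3 of all 8 lists shared 3 stretches, of 514, 1007 and 1284 bp.

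No H3K27me3 peak met the Klf4 window in any list. The nearest was in Utx-KO ESC, 1541 bp wide with a score of 113, and ended 157 bp before the window. In WT ESC the nearest H3K27me3 peak lay 1452275 bp after the window. The window edge decides that Klf4 has no H3K27me3 in Utx-KO ESC: widened by 5000 bp on each side, it holds that peak.

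Myc was the locus with the most even H3K4me3. It covered 4.51 kb of the 15 kb window in iPS clone 1, 6.61 kb in iPS clone 2 and 4.53 kb in Utx-KO ESC. Coverage was 6.94 kb in Utx-KO MEF with dox and 7.18 kb in WT MEF with dox. It was 5.84 kb in WT ESC, 4.68 kb in Utx-KO MEF and 6.20 kb in WT MEF. Both dox libraries were the highest, and iPS clone 1 and Utx-KO ESC the lowest.

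With dox the Myc domain was a single peak of 6935 bp in Utx-KO and 7183 bp in WT. Untreated Utx-KO MEF had 5 peaks there, separated by gaps of 109 to 292 bp, of which the highest-scoring was 1640 bp wide. In untreated WT MEF a single peak of 6199 bp, from 61814948 to 61821146, was the 15th widest of 18017 in its list. Utx-KO ESC had 1 peak of 4529 bp, and WT ESC had 2, of 4997 and 841 bp. Myc differed from the other 3 loci in this: WT MEF with dox covered 1.34 kb more than WT ESC there and less at Pou5f1, Sox2 and Klf4.

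At Myc, H3K27me3 was called in Utx-KO ESC as 1 peak of 1438 bp, from 61817124 to 61818561, with a score of 108, and all of it lay on H3K4me3. In that list 56.5% of peaks were wider, and by score it ranked 16830 of 36231. With lists reduced to equal numbers of peaks it was gone, at 0 bp, and with windows 5000 bp wider Sox2 had 1766 bp and Klf4 1541 bp of H3K27me3 in Utx-KO ESC as well. No other list had an H3K27me3 peak in the Myc window, and in WT ESC the nearest lay 55388 bp before it.

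**Figure D4:**
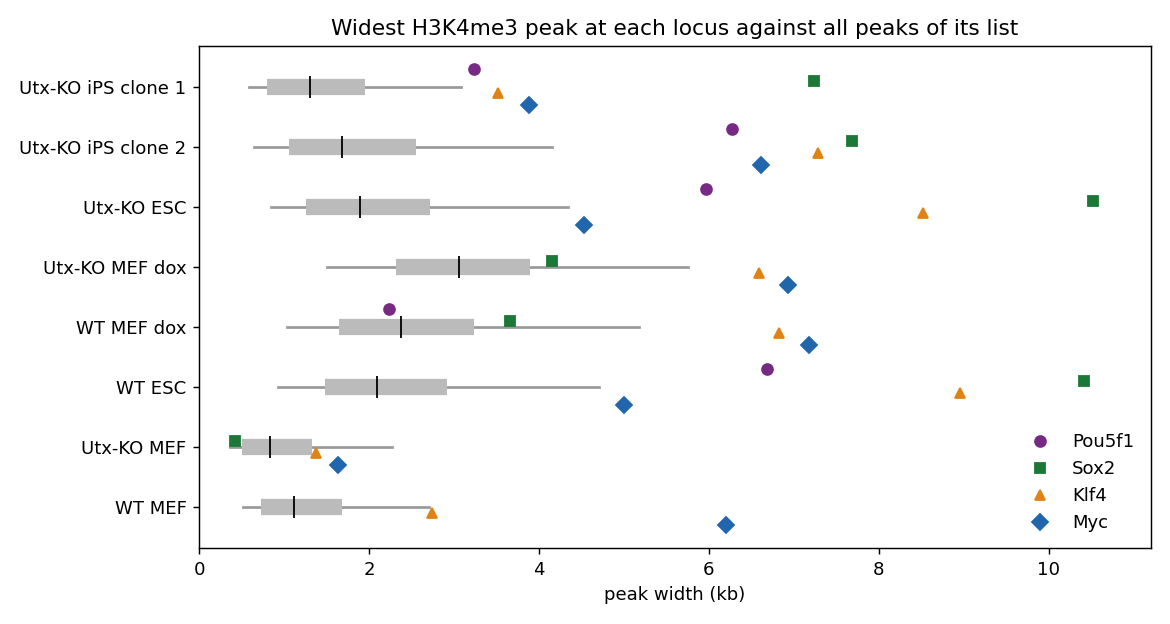
Width in kb of the widest H3K4me3 peak at each locus beside all H3K4me3 peaks of the same library. For each library the grey line runs from the 5th to the 95th percentile of the list, the box from the 25th to the 75th, and the tick is the median; coloured points are the loci, without the Pou5f1 peak that crosses the window end, so Pou5f1 has no point in Utx-KO MEF with dox and untreated MEF, nor Sox2 in WT MEF. The Sox2 point is at 3663 bp in WT MEF with dox, inside the line, and at 10421 bp in WT ESC, above the 95th percentile of 4711 bp.

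UTX was called nowhere in the 4 windows in WT MEF with dox or WT MEF, and at Pou5f1 and Sox2 in WT ESC. In WT MEF with dox, whose list held 3540 peaks, the nearest UTX peak lay 317658 bp from Pou5f1 and 273358 bp from Sox2. The UTX list of WT MEF held 372 peaks. A score of at least 100 was reached by 0.452% of UTX peaks in WT MEF with dox, 14.2% in WT MEF and 26.6% in WT ESC. In WT ESC, Pou5f1 held 5 UTX peaks. They ran from 35639204 to 35639781, from 35640508 to 35641446, from 35641816 to 35642427, from 35646099 to 35646714 and from 35651143 to 35651514. The second had the highest score of the 5, 179, which ranked 271 of 5076 in the list, and the others scored 58.1 to 99.6. All 5 met an H3K4me3 peak of WT ESC, and 3.12 kb of the window was covered. Sox2 held 2, from 34545069 to 34545843 with a score of 84.0, off H3K4me3, and from 34554947 to 34555480 with a score of 64.3, on it. WT MEF with dox minus WT ESC was -3117 bp at Pou5f1 and -1309 bp at Sox2. With a score of at least 100 it was -939 bp at Pou5f1 and 0 bp at Sox2, with windows 2500 bp narrower it was also 0 bp at Sox2, and with windows 5000 bp wider it was -795 bp at Myc.

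UTX peaks as close together as those of Pou5f1 were rare in WT ESC. Of the 4 windows, 2 held at least 2 UTX peaks, against 2.21% of 15000 bp windows centred on WT ESC H3K4me3 peaks. At least 5 were held by 0.00514% of these windows, which is the single window on the Pou5f1 peak itself, and 4 other windows held 4, of which 1 is on the neighbouring Pou5f1 peak. In the 4 windows 6 of 7 UTX peaks met H3K4me3, against 26.1% of the UTX peaks in the list. H3K4me3 of WT ESC covered 66.5% of the Pou5f1 window and 76.7% of the Sox2 window. A UTX peak anywhere in them would often meet it, so nothing is read from this contrast. At Myc the nearest UTX peak of WT ESC ended 1117 bp before the window, with a score of 76.0, and at Klf4 it lay 44085 bp before.

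The 4 loci were then counted in each comparison by whether the first library covered more of the window, beside the share of 15000 bp windows, centred on all merged regions of that mark, in which it did so. With dox, H3K4me3 covered more in WT MEF with dox than in WT MEF at 4 of 4 loci, against 66.8% of all windows. It covered more in Utx-KO MEF with dox than in Utx-KO MEF at 4 of 4, against 59.6%, and at 3 of 4 without the peak that crosses the Pou5f1 window end, with windows 2500 bp narrower, or with 50% of a peak required inside. For H3K27me3, WT MEF with dox covered more than WT MEF at 0 loci, against 2.78%, and 13.8% of windows went the other way. Utx-KO MEF with dox covered more than Utx-KO MEF at 1, Sox2, against 12.5%, with 10.4% the other way. The H3K27me3 background windows, here and below, lie on called regions, many of them from the long Utx-KO ESC list. In each comparison but Utx-KO ESC against WT ESC, most of them were covered equally on both sides. The dox shares are those of most H3K4me3 windows, so the longer H3K4me3 with dox was common to the lists.

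Between genotypes, H3K4me3 covered more in Utx-KO MEF with dox than in WT MEF with dox at 1 locus, Sox2, against 42.7%. It covered more in Utx-KO MEF than in WT MEF at 1, Sox2, against 23.4%, and more in Utx-KO ESC than in WT ESC at 0, against 29.1%. For H3K27me3, Utx-KO MEF with dox covered more than WT MEF with dox at 1 locus, Sox2, against 14.3%. The reverse held in 2.43% of windows, so most windows that differed went the way of Sox2. Utx-KO MEF covered more than WT MEF at 0, against 11.7%, and Utx-KO ESC more than WT ESC at 1, Myc, against 89.8%. The last count was 0 at equal numbers of peaks and 3 with windows 5000 bp wider. Its background share is over windows on called H3K27me3 regions, many of them from the long Utx-KO ESC list, while Pou5f1 and Klf4 held no H3K27me3 in any list, so nothing is read from it.

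WT ESC covered more H3K4me3 than WT MEF at 3 loci, all but Myc, against 61.7%, and more H3K27me3 at 0, against 19.5%. WT MEF with dox covered more H3K4me3 than WT ESC at 1, Myc, against 48.1%, and more H3K27me3 at 1, Sox2, against 2.85%. The mean of the 2 iPS clones exceeded WT ESC for H3K4me3 at 0 loci, against 45.6%, and for H3K27me3 at 0, against 2.47%. For UTX, WT MEF with dox covered more than WT MEF at 0 loci, against 41.2%, and more than WT ESC at 0, against 39.0%. These UTX shares are over windows on called UTX regions. No locus window held UTX in either MEF list, and Klf4 and Myc held none in any list, so nothing is read from the UTX counts.

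Counted by peaks, 3 of the WT ESC H3K4me3 peaks in the windows, 2 at Pou5f1 and 1 at Sox2, had no counterpart in WT MEF. Of these, 1 was met by H3K4me3 in Utx-KO MEF with dox, against 28.9% of the 7701 such peaks, and 2 were met in WT MEF with dox, against 40.4%. The main Pou5f1 peak was not met in Utx-KO MEF with dox and was met in WT MEF with dox, as were 13.9% of the 7701. The Sox2 peak was met in both genotypes. Of the H3K4me3 peaks in the windows, 1 of 4 met H3K27me3 in Utx-KO MEF with dox, against 9.33% in the list, 1 of 6 in WT MEF with dox, against 1.20%, and 1 of 5 in Utx-KO ESC, against 25.1%. The first 2 were at Sox2 and the last at Myc. The one in WT MEF with dox rests on 0.065 kb shared with an H3K27me3 peak of score 54.9, near the lowest score of 50.

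The 2 iPS clones allowed the one measure of spread between libraries of a state. H3K4me3 averaged 5.87 ± 1.49 kb at Pou5f1, 8.36 ± 0.843 kb at Sox2, 6.85 ± 0.624 kb at Klf4 and 5.56 ± 1.49 kb at Myc (SD, n = 2). Clone 2 covered more than clone 1 at each locus, and its list was longer, with 28232 peaks against 23388. WT ESC lay above the clone mean at each locus, by less than 1 SD at Sox2 and Myc and by more at Pou5f1 and Klf4. At Myc clone 2 alone, at 6.61 kb, lay above WT ESC, at 5.84 kb, and with a score of at least 100 the clone mean lay 565 bp above it. With 2 clones no test can be made of these differences.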

How the data were processed

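Of 27 samples, 19 immunoprecipitated libraries had a peak list and 8 whole-cell extracts were not analysed here. Each list, deposited by the authors, gives the chromosome, start, end, name and score of every peak in 1 library. Per the submitters' processing notes CASAVA 1.8.2, Bowtie 0.12.5, MACS 1.4.1 and mm9 were used; their settings and the control of each list are not given in the sources used here. Groups came from the sample titles. Python 3.11.15 with numpy 2.4.6 was used to intersect peaks with the windows, after leaving out 1 peak off the chromosomes, and covered length is the union of peaks inside a window. A score depends on depth, so it ranks peaks within 1 list only. For the background, windows of 15 kb were centred on the merged regions of all lists of a mark, 33646 for H3K4me3, 42449 for H3K27me3 and 8954 for UTX. The code for covered and merged lengths was tested in 50 simulations, and in all 50 the lengths equalled base by base counts. All 4 members were described in every list, by a rule for named genes. The members and lists were chosen with earlier results of these data known. Alternatives were a score of at least 100, 50% of a peak inside the window, equal numbers of peaks, windows 5000 bp wider or 2500 bp narrower on each side, and each iPS clone left out.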

Additional observations from a re-analysis of the deposited data

Results flagged for a closer look

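At Sox2 the same contrast had opposite signs in different states, for each histone mark, with the windows and full lists. Each value rests on 1 library per state, and none of the differences was tested. For H3K27me3, Utx-KO MEF with dox covered 3.263 kb more of the Sox2 window than untreated Utx-KO MEF, while WT MEF with dox covered less than untreated WT MEF, a difference of -6.501 kb. The gap between these 2 effects was 9.764 kb. With peaks of a score of at least 100 only, the Utx-KO difference was 301 bp and the WT difference -7086 bp. The H3K27me3 list of WT MEF with dox held 938 peaks, of which 2.35% reached that score. The same libraries read by genotype, with the full lists, gave 4.559 kb for Utx-KO minus WT with dox and -5.205 kb without it. Their gap is the same 9.764 kb by arithmetic and not a separate result.

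For H3K4me3 at Sox2, Utx-KO minus WT was -0.024 kb in ESC, 0.418 kb in untreated MEF and 0.487 kb in MEF with dox. The ESC effect therefore lay -0.442 kb from that of untreated MEF and -0.511 kb from that of MEF with dox. The positive H3K4me3 signs in MEF do not hold under all other settings. With windows 5000 bp wider the difference in MEF with dox was -1193 bp, and with a score of at least 100 or equal numbers of peaks that in untreated MEF was 0 bp. The ESC difference stayed negative in every alternative, at -24 bp or, with windows 5000 bp wider, at -729 bp. Its size is set by the window end, since the whole peak was 10523 bp wide in Utx-KO ESC and 10421 bp wide in WT ESC.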

How the results depend on the processing

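Of 112 recomputed counts over the 4 loci, 100 were equal to the first count and 12 differed. The H3K4me3 count of Utx-KO MEF with dox against Utx-KO MEF was 3 with 50% of a peak inside the window, with windows 2500 bp narrower, and without the peak that crosses the Pou5f1 window end, an alternative chosen after seeing the data. For H3K4me3, Utx-KO MEF with dox covered more than WT MEF with dox at 0 loci with windows 5000 bp wider, since the Sox2 difference became -1193 bp. Utx-KO MEF covered more than WT MEF at 0 loci with a score of at least 100 or equal numbers of peaks, and at 2 with wider windows, where Pou5f1 reached 274 bp. The iPS clones exceeded WT ESC at 1 locus, Myc, by 565 bp with a score of at least 100; with 1 clone left out the count ranged from 0 to 1 and the Myc difference from -1328 bp without clone 2 to 776 bp without clone 1, while that for H3K27me3 was 0 throughout. For H3K27me3, Utx-KO ESC covered more than WT ESC at 0 loci with equal numbers of peaks and at 3 with wider windows, and WT MEF with dox covered more than WT ESC at 0 with a score of at least 100. The score and peak number settings act by leaving out peaks, and the window settings by leaving out or adding peaks or parts of peaks. Of 448 differences at single loci, 400 stayed within the limits, 44 moved and 4 reversed. The limit was a change of at most 1.5 times, or for the iPS clones of at most their SD. Differences of 0 bp that stayed at 0 bp, as where no list had a peak, count as within the limits. Leaving out the crossing peak can change Pou5f1 only. Neither total is therefore read as a measure of stability. No paired analysis was possible because each state and mark has 1 library, and the clone numbers that the iPS libraries of both marks share join no groups in a test. Depth is unknown, and a window without a peak may hold signal below the caller's threshold.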
